A study of Mus musculus with 24 samples.

Results

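The hippocampus of WT mice fed a ketogenic diet was compared with that of WT mice fed a diet enriched in medium-chain triglycerides (MCT). The comparison took the 4 WT ketogenic libraries and the 4 WT MCT libraries, which are 8 of the 24 libraries of the series. Each library was made from the hippocampus of a separate female mouse of the strain B6129SF2/J, a hybrid stock whose animals each inherit their own mix of segments from the founding inbred strains. The mice were 3 months old at the start and ate the diet for 6 months. By composition, 90% of the ketogenic diet was triglyceride of long chain length, 10% was protein and none was carbohydrate, at 6.7 kcal/g. The MCT diet held 70% carbohydrate, 10% long-chain triglyceride, 10% medium-chain triglyceride and 10% protein at 4.1 kcal/g. The diets therefore differed in carbohydrate, in fat and in energy density together, and these cannot be told apart. Libraries of the control diet enter no comparison here, and they serve only to set the spread in 1 alternative fit of all libraries. A second genotype, 3xTg-AD (3xTg), models Alzheimer's disease and carries transgenes for human APP and human MAPT that a Thy1 cassette drives. These mice ate the same diets and were used only to ask whether the difference between the diets differed between genotypes (5 ketogenic and 4 MCT libraries).

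Ketone bodies are made mainly in the liver when carbohydrate is scarce and fatty acids are oxidised, and the brain can burn them in place of glucose. Medium-chain fatty acids reach the liver directly by the portal vein and are turned into ketones even when carbohydrate is eaten. In the brain, monocarboxylate transporters carry ketones across the blood-brain barrier and into cells, and the enzymes BDH1, OXCT1 and ACAT1 convert them to acetyl-CoA for the citrate cycle.

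Libraries are named by strain, diet and replicate, so that WT_K_1 is the first WT ketogenic library and WT_M_1 the first WT MCT library. Values are normalised counts, that is whole reads divided by 1 factor per library. The 8 libraries held between 10.5 M (WT_K_1) and 17.5 M (WT_M_1) reads assigned to genes. Markers of the hippocampus were present in every library: Prox1, the transcription factor of dentate granule cells, lay between 1856 and 2738, Wfs1, a marker of CA1 pyramidal cells, between 1150 and 2451, and Camk2a, the alpha subunit of calcium/calmodulin-dependent kinase II, between 46882 and 58991.

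A pair of libraries stood apart. WT_M_2 had Thy1, a neuronal surface glycoprotein, at 23048, whereas the other 7 libraries lay between 7140 and 8137, and the 3xTg libraries of these diets other than 3xTg_K_1 lay between 20385 and 29277. The library labelled WT_M_2 therefore went against its genotype label on this measure, and the library labelled 3xTg_K_1, at 8112, did so in the other direction. App, the amyloid precursor gene, was at 30297 in WT_M_2 and between 21293 and 24684 in the other 7, while Mapt, which encodes tau, lay between 6516 and 7759 in all 8. WT_K_1 had Ttr, the transthyretin that choroid plexus secretes, at 3921, against 42.5 to 224 in the other 7. Results are for the 8 libraries as labelled unless 6 are named. The called genes, the gene lists and most single genes are also given for the 6 libraries (WT_K_2, WT_K_3, WT_K_4, WT_M_1, WT_M_3 and WT_M_4) left when libraries with Thy1 above 15000 or Ttr above 3000 are removed.

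**Figure D1:**
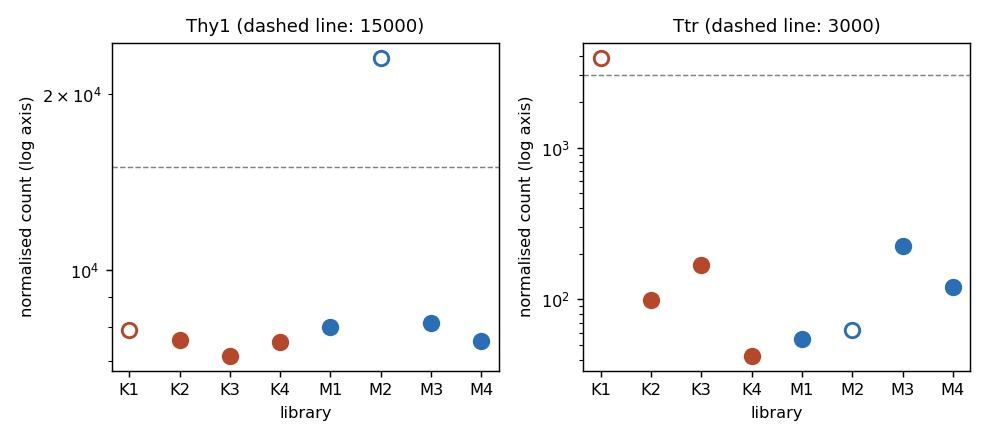
Thy1 (left) and Ttr (right) in normalised counts on log axes for the 4 ketogenic (K, red) and 4 MCT (M, blue) WT libraries. Open circles are the libraries past a limit (dashed lines, at 15000 for Thy1 and 3000 for Ttr): M2 has Thy1 at 23048 and K1 has Ttr at 3921.

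Of 13810 genes tested in the 8 libraries, 2 were called at an adjusted p under 0.05 (0.0145%; limma, Benjamini-Hochberg), and both rose on the ketogenic diet relative to MCT. They were Pla2g4e, a cytosolic phospholipase A2 of the calcium-dependent N-acyltransferase type, and Eif3j2, a near copy of the translation initiation factor subunit gene Eif3j1. With the 6 libraries the same 2 genes were called among 13713 (0.0146%). No gene was called lower in either fit. At an unadjusted p under 0.05 there were 459 genes (3.32%) with 8 libraries, where 690.5 would be reached by chance, and 457 (3.33%) with 6. The 95% interval of the difference lay within 1.5-fold in either direction for 11505 of the genes tested (83.3%) with 8 libraries and for 11292 (82.3%) with 6. For the other genes these libraries cannot place the difference within 1.5-fold.

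Pla2g4e was at 222, 213, 444 and 510 normalised counts in WT_K_1 to WT_K_4. In WT_M_1 to WT_M_4 it was at 39.4, 32, 21 and 34.2. The lowest ketogenic library was thus far above the highest MCT library, and WT_K_3 and WT_K_4 were higher than WT_K_1 and WT_K_2. The group means were 347 ± 152 and 31.7 ± 7.74 (SD, n = 4 each), and the log2 difference was 3.34 ± 0.29 (SE), a 10.1-fold rise (limma, adjusted p = 0.00127). Without WT_K_1 and WT_M_2 it was 3.53 ± 0.32 (adjusted p = 0.0034). In a fit that took its spread from all libraries of the series, the control diet included, the same difference had an adjusted p of 0.0679 with 8 libraries and 0.154 with 6 (limma). Leaving 1 more library out of the 6 ended the call without WT_K_3 (adjusted p = 0.0572) or WT_K_4 (adjusted p = 0.084).

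Eif3j2 was at 42.6, 43.5, 97.1 and 101.0 in the ketogenic libraries and at 1.64, 0, 2.10 and 2.01 in the MCT libraries. The 4 MCT values rest on 6 reads in all, against 264 in the ketogenic group. The log2 difference was 4.90 ± 0.45 (SE; limma, adjusted p = 0.00127), and 4.71 ± 0.37 (adjusted p = 0.0018) with 6 libraries. With 6 libraries the fit of all libraries gave an adjusted p of 0.132 (limma), and without WT_K_2, WT_K_3 or WT_K_4 as well the gene no longer passed the filter. Its size depends on the constant added to such low values: with constants of 5 and 0.5 it was 3.47 and 5.34 with 8 libraries.

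Eif3j2 cannot be read apart from Eif3j1. Of the 2330 stretches of 50 bases in the longest annotated transcript of Eif3j2, 2115 (90.8%) also occur in that of Eif3j1, and 39.4% of those of Eif3j1 occur in Eif3j2. Eif3j1 lies on chromosome 2 and Eif3j2 on chromosome 18. Eif3j1 was at 100, 90.9, 19.4 and 13.8 in the ketogenic libraries and at 145, 145, 169 and 163 in the MCT libraries. The libraries with the lowest Eif3j1, WT_K_3 and WT_K_4, were those with the highest Eif3j2, and the groups did not overlap for either gene. The log2 difference of Eif3j1 was -1.93 ± 0.53 and did not pass (limma, adjusted p = 0.997). With 6 libraries it was -2.40 ± 0.53 and did not pass either (limma, adjusted p = 0.998). In 2 alternatives with 6 libraries Eif3j1 was called lower, namely with the replicate block and with WT_K_2 left out as well. With that block the difference rests only on WT_K_3, WT_K_4, WT_M_3 and WT_M_4, whose numbers occur in both groups. Added together, the counts of both genes were 143, 134, 116 and 115 on the ketogenic diet and 147, 145, 171 and 165 on MCT. The sum differed far less than either gene alone, with means of 127 ± 13.7 and 157 ± 13.2 (SD, n = 4 each). Its groups still did not overlap, though only narrowly, with WT_K_1 at 143 and WT_M_2 at 145. How the deposited counting divided reads between the copies is not given in the sources used here, so the values of both genes are uncertain.

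**Figure D2:**
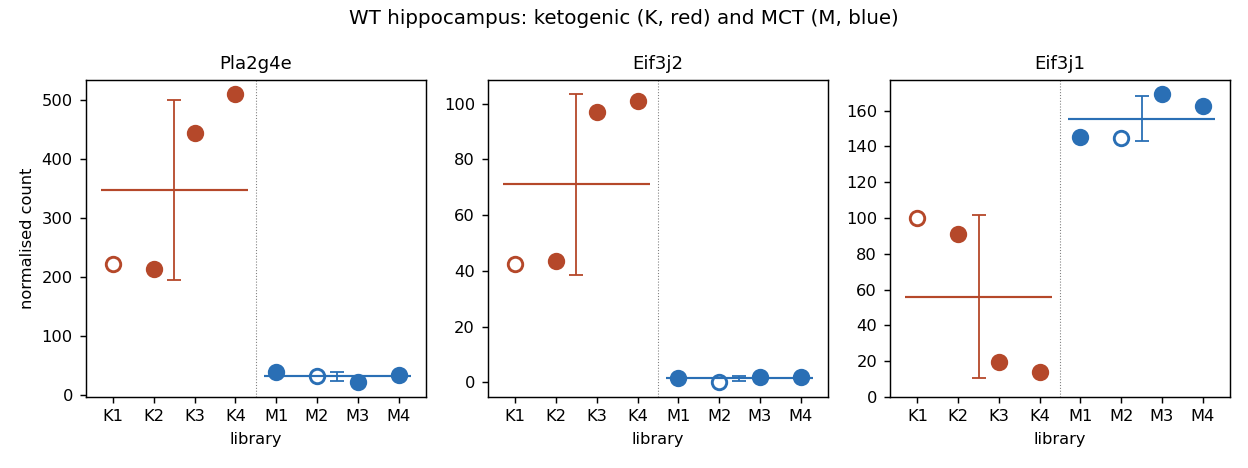
Normalised counts of Pla2g4e, Eif3j2 and Eif3j1 in the 4 ketogenic (K, red) and 4 MCT (M, blue) WT libraries; lines are group means, bars 1 SD and open circles the libraries past the Thy1 or Ttr limit. The groups do not overlap in any panel, and K3 and K4 lie farther from the MCT libraries than K1 and K2 do.

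Pla2g4e spans chr2:120166412-120245335 on the minus strand of GRCm38, and Eif3j1 lies within 2 Mb of it. The neighbourhood was therefore described gene by gene, in a window of 4 Mb to each side of the lower coordinate of Pla2g4e that was chosen with the results known. Of 90 genes tested in the window, 26 (28.9%) had an unadjusted p under 0.05, against 432 of the 13608 other genes with a position (3.17%). The groups did not overlap for 18 of the 90 (20.0%), 9 higher and 9 lower on the ketogenic diet, whereas over all genes tested the share was 1.91% (0.956% higher and 0.956% lower). With 6 libraries, 24 of the 90 (26.7%) had such a p and the groups did not overlap for 30 (33.3%), 13 higher and 17 lower, beside 8.33% of all genes (4.38% higher and 3.95% lower). Only Pla2g4e was called among them, and the members were picked out by their values, so these shares are a description. Pla2g4b and Oip5, counted among the 18, had every ketogenic value under 10. They passed the filter of 10 counts in 3 libraries through the MCT group alone, which favours groups without overlap. Over the 269 stretches of 5 Mb with at least 20 tested genes, the one from 120 to 125 Mb of chromosome 2 had the highest share of genes with an unadjusted p under 0.05 (19 of 47, 40.4%). The next was chromosome 9 from 40 to 45 Mb, with 10 of 44 (22.7%). Which inherited segment of this region each hybrid mouse carried was not tested.

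Promoters of genes from both the window and the ketone pathway are printed to show the sequence next to the start of transcription. They run from 250 bases before to 50 bases after the annotated start (RefSeq, GRCm38.p6), 5′ to 3′ on the strand of the gene. Capitals mark the searched motifs on either strand, the E-box CACGTG and the nuclear receptor half-site AGGTCA. Read on the other strand, the half-site appears as TGACCT.
Pla2g4e (chr2:120245286-120245585, minus strand): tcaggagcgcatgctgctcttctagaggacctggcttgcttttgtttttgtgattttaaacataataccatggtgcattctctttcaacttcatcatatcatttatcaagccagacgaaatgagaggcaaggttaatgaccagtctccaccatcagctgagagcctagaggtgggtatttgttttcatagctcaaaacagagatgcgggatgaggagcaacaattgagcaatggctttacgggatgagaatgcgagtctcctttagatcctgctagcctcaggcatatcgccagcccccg
Ivd (chr2:118861744-118862043, plus strand): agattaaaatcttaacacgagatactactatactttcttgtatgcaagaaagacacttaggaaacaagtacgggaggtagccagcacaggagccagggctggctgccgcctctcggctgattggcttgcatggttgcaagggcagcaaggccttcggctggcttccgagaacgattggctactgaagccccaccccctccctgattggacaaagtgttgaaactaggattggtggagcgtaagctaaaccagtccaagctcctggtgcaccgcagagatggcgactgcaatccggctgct
Ckmt1 (chr2:121357526-121357825, plus strand): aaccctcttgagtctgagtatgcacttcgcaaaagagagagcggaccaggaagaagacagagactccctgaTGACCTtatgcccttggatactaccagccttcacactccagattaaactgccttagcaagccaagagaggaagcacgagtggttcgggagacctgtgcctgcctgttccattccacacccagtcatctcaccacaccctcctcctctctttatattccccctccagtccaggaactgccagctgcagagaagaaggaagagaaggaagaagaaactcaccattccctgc
Slc16a1 (chr3:104638414-104638713, plus strand): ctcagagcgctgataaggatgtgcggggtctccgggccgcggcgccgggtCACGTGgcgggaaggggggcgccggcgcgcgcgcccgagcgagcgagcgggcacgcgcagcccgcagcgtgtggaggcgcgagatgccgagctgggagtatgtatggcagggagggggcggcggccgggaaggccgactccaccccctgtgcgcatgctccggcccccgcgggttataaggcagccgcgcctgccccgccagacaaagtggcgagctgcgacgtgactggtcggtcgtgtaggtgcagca
The Pla2g4e and Ivd promoters hold neither motif, the Ckmt1 promoter printed holds a half-site and that of Slc16a1 an E-box. Over all 32851 promoters of the table, 7.15% hold the E-box and 16.3% the half-site. Of 20 promoters annotated to the 18 window genes whose groups did not overlap, 1 held the E-box and 2 the half-site. The table has another Ckmt1 promoter, at chr2:121358360-121358659, which holds neither. It had no entry for Eif3j2.

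Among the neighbours, Ivd had the smallest p after the called genes. It encodes isovaleryl-CoA dehydrogenase, the mitochondrial enzyme of leucine breakdown, a pathway that ends in ketogenic products. Ivd was at 953, 1039, 811 and 781 in the ketogenic libraries and at 1202, 1325, 1294 and 1223 in the MCT libraries. All 4 ketogenic values lay below all 4 MCT values (log2 difference -0.50 ± 0.09; limma, adjusted p = 0.358; -0.51 with 6 libraries). DESeq2 on the recovered whole reads called Ivd with 8 libraries (adjusted p = 0.000498) and with 6 (adjusted p = 0.0136).

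Haus2, a subunit of the augmin complex that nucleates spindle microtubules, was at 400, 393, 330 and 339 on the ketogenic diet and at 474, 504, 505 and 497 on MCT. Its groups did not overlap either (log2 difference -0.44 ± 0.08; limma, adjusted p = 0.358; -0.48 with 6 libraries), and DESeq2 called it with 8 libraries (adjusted p = 0.00521) but gave an adjusted p of 0.087 with 6. Mfap1b, a splicing factor gene, was at 191, 222, 174 and 164 against 259, 283, 256 and 253 (log2 difference -0.49 ± 0.10; limma, adjusted p = 0.997; -0.47 with 6 libraries). Mfap1b shares 62.5% of its 50-base stretches with its neighbour Mfap1a, whose groups overlapped at 369 to 431 and 333 to 416, so reads of this pair may also be divided between copies.

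Exd1, an RNA-binding protein of the piRNA pathway in germ cells, was at 50.8, 32.9, 43.7 and 44.8 on the ketogenic diet and at 14.8, 14.3, 24.2 and 26.1 on MCT (log2 difference 1.11 ± 0.24; limma, adjusted p = 0.997; 0.89 with 6 libraries). Strc, which encodes the inner ear protein stereocilin, was at 12.4, 14.5, 2.91 and 4.59 against 22.2, 26.5, 31.6 and 32.2 (log2 difference -1.81 ± 0.42, adjusted p = 0.997; -2.07 with 6 libraries). Strc overlaps Ckmt1 on the opposite strand. Ckmt1, the mitochondrial creatine kinase of brain, had the opposite order, at 2703, 2726, 2870 and 2815 against 2466, 2438, 2142 and 2470 (log2 difference 0.23 ± 0.05, adjusted p = 0.997; 0.25 with 6 libraries). Pla2g4b, another cytosolic phospholipase A2 of the same cluster, was at 1.15 to 6.77 on the ketogenic diet and at 9.93 to 19.1 on MCT. This gene passed the filter through the MCT libraries alone. Eif3j1 overlaps Spg11 on the other strand, and Pla2g4b overlaps Sptbn5 on the other strand and Gm28042 on its own. Haus2, Oip5 and Cdan1 also overlap a protein-coding gene on the other strand and Capn3 overlaps Ganc on the same strand; no source used here says whether the counting used strand. The order of Pla2g4b was opposite to that of Pla2g4e, but its reads are few and may include those of the overlapping genes. Pla2g4e shares no 50-base stretch with Pla2g4b.

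The remaining genes of the window whose groups did not overlap were Sema6d, Capn3, Bloc1s6, Rpap1, Ubr1, Slc30a4, Frmd5, Cdan1 and Oip5. Sema6d, a transmembrane semaphorin of axon guidance, lay between 1540 and 1749 on the ketogenic diet and between 1159 and 1488 on MCT (log2 difference 0.34 ± 0.08; 0.27 with 6 libraries). Capn3, a calcium-dependent protease, lay between 134 and 192 against 214 to 248 (log2 difference -0.46 ± 0.11; -0.44 with 6 libraries). Bloc1s6, a subunit of the complex that builds lysosome-related organelles, lay between 425 and 488 against 297 to 396 (log2 difference 0.33 ± 0.09; 0.36 with 6 libraries). Bub1b, the spindle checkpoint kinase, had the widest difference among neighbours whose groups overlapped, at 9.61, 34.8, 6.80 and 4.59 against 50.1, 67.3, 31.6 and 46.2 (log2 difference -2.09 ± 0.48; -1.89 with 6 libraries). B2m, the light chain of MHC class I, was at 1115, 971, 961 and 783 against 1091, 1162, 1210 and 1193, and its groups overlapped through WT_K_1 alone (log2 difference -0.29 ± 0.09, and -0.37 ± 0.09 with 6 libraries). None of these was called (limma, adjusted p = 0.997 with 8 libraries for each). In 12 of the 18 genes, WT_K_1 and WT_K_2 lay between the other ketogenic libraries and the MCT libraries, an order noticed after the values were seen. That is 66.7% of them, beside 42 of the 246 genes without overlap in the rest of the genome (17.1%) and 7 of the 21 on the rest of chromosome 2 (33.3%).

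**Figure D3:**
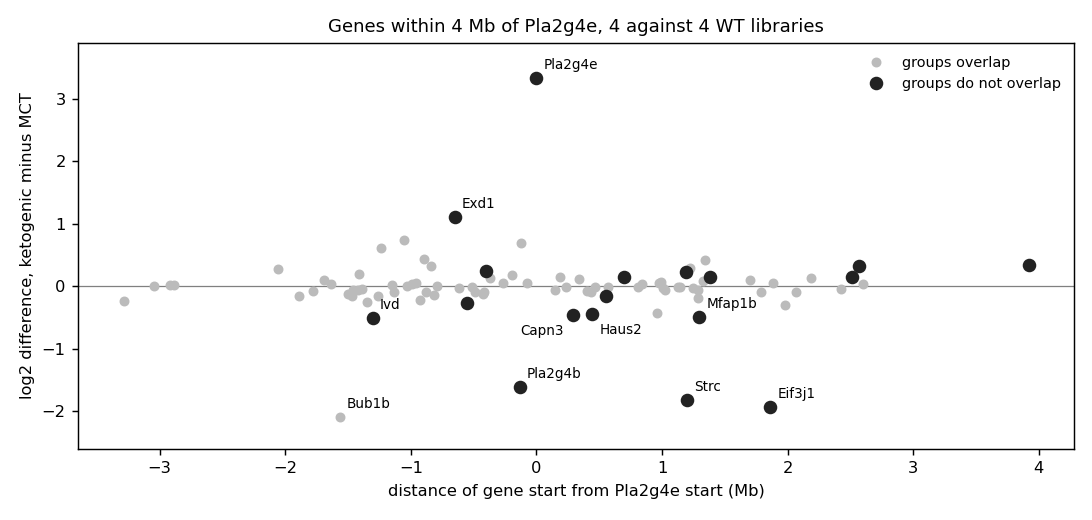
Log2 difference (ketogenic minus MCT, 8 libraries) of the 90 tested genes of the window against the distance of the lower coordinate of each gene from that of Pla2g4e in Mb; black points are the 18 genes whose groups do not overlap. Pla2g4e is highest at 3.34, and Bub1b, Eif3j1, Strc and Pla2g4b lie below -1.5.

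Ketone body genes came next. Of 14 listed genes of ketone metabolism and transport, 13 passed the filter of 10 counts in 3 libraries, 9 lay higher on the ketogenic diet and 4 lower, with a median log2 difference of 0.04 (0.00 over all genes tested), and none was called (limma; 2 had an unadjusted p under 0.05). Both were higher on the ketogenic diet, and Slc16a1 was among them. With 6 libraries 9 of 13 lay higher (median 0.04).

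Slc16a1 encodes MCT1, the monocarboxylate transporter of brain endothelium and glia; the transporter's name is unrelated to that of the diet. It was at 1359, 1292, 1077 and 1066 on the ketogenic diet and at 975, 735, 990 and 1005 on the MCT diet. The lowest value was in WT_M_2 and the highest in WT_K_1, both of which stood apart on other genes. The log2 difference was 0.37 ± 0.11 (limma, adjusted p = 0.997), and without those libraries it was 0.20 ± 0.08, a move of over 1.5 times. The groups of 8 libraries did not overlap, and leaving libraries out cannot make such groups overlap. Slc16a7, which encodes the neuronal transporter MCT2, lay between 1004 and 1146 against 978 to 1118 (log2 difference 0.04, 95% interval -0.10 to 0.18; 0.04 with 6 libraries). Slc16a3, the gene of the lactate exporter MCT4, was near the filter at 11.0 to 18.4 against 5.03 to 15.5 (log2 difference 0.59 ± 0.34; with 6 libraries 0.94 ± 0.35, without overlap, limma, adjusted p = 0.998).

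The enzymes of ketone use were close in both groups. Bdh1 lay between 478 and 557 on the ketogenic diet and between 451 and 532 on MCT (log2 difference 0.08, 95% interval -0.08 to 0.24; 0.08 with 6 libraries). Oxct1, the rate-limiting transferase of ketone use, lay between 5393 and 5847 against 5463 to 5805 (log2 difference -0.00, 95% interval -0.10 to 0.09; 0.02 with 6 libraries). Acat1 lay between 1391 and 1444 against 1412 to 1521 (log2 difference -0.03, 95% interval -0.13 to 0.06; -0.02 with 6 libraries). For each of these 3 enzymes the interval lay well within 1.5-fold in either direction.

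**Figure D4:**
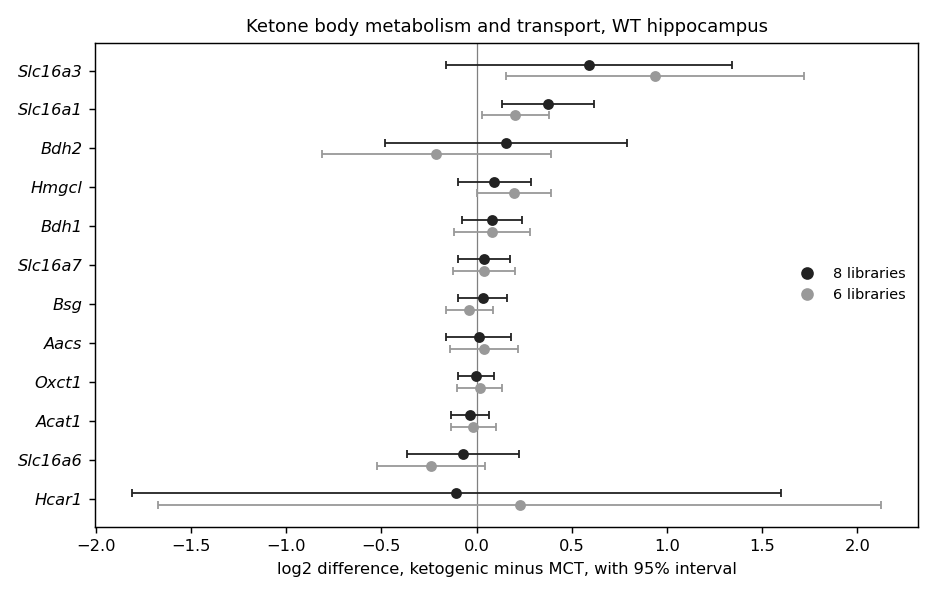
Log2 difference (ketogenic minus MCT) with its 95% interval for 12 of the ketone metabolism and transport genes that passed the filter, with 8 libraries (black) and 6 (grey). The interval of Slc16a1 lies above 0 in both, and that of Oxct1 is narrow around 0.

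Across all 45 gene lists, which named 800 genes, 745 were tested with 8 libraries and none was called (limma). An unadjusted p under 0.05 was reached by 40 of them (5.37%, against 3.32% of all genes tested). The groups did not overlap for 9 listed genes (1.21%, against 1.91%), among them Slc16a1, Arntl, Ogn and Sox10 on the higher side and Abcc9, Grik5 and Bst2 on the lower side of the ketogenic group. Bst2 passed the filter through the MCT libraries alone, which favours such groups. With 6 libraries 741 were tested, none was called and 40 (5.40%) had such a p. The lists are therefore described by counts and medians, given with 8 libraries and then with 6.

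Genes of fat handling were read as 3 lists. Fatty acid uptake and activation had 7 of 18 members higher, then 5 of 18 (medians -0.04, then -0.04). Mitochondrial and peroxisomal oxidation had 13 of 27 higher, then 20 of 27 (medians -0.00, then 0.03), so its count depended on the 2 libraries. Fatty acid and triglyceride synthesis had 11 of 27 higher, then 11 of 27 (medians -0.01, then -0.02). Cpt1a, the carnitine transferase that admits long-chain fatty acids to mitochondria, lay between 402 and 501 on the ketogenic diet and between 429 and 516 on MCT (log2 difference -0.05, 95% interval -0.24 to 0.14; -0.05 with 6 libraries). Decr1, a reductase needed for unsaturated fatty acids, was at 266, 314, 334 and 282 against 238, 245, 228 and 275 (log2 difference 0.28 ± 0.09; limma, adjusted p = 0.997; 0.33 with 6 libraries). Mfsd2a, which carries docosahexaenoic acid across brain endothelium, was at 284, 301, 443 and 483 against 352, 685, 548 and 553, with the highest value in WT_M_2 (log2 difference -0.50 ± 0.21, and -0.24 ± 0.20 with 6 libraries).

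PPAR receptors and their targets, which respond to fatty acids in liver and muscle, had 4 of 19 members higher with 8 libraries (median -0.05) and 9 of 19 with 6 (median -0.00). Pdk4, the kinase that closes pyruvate dehydrogenase and a standard PPAR target, was at 214, 295, 422 and 271 against 203, 476, 287 and 446, so the groups overlapped widely. Acot2, a mitochondrial acyl-CoA thioesterase, was at 139, 116, 110 and 117 against 138, 170, 148 and 136 (log2 difference -0.30 ± 0.11; limma, adjusted p = 0.997; -0.30 with 6 libraries). Cholesterol genes had 14 of 29 higher, then 18 of 29 (medians -0.01, then 0.03).

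The ketogenic diet held no carbohydrate, and genes of glucose use were read for that contrast. Glucose transport and glycolysis had 17 of 24 members lower on the ketogenic diet, with a median of -0.04 and a range from -0.19 to 0.08, then 16 of 24 (median -0.04). Slc2a1, the GLUT1 transporter of endothelium and astrocytes, was at 835, 902, 1078 and 1142 against 901, 1306, 1055 and 1267 (log2 difference -0.19 ± 0.13, and -0.04 ± 0.12 with 6 libraries). Pyruvate entry and the citrate cycle had 22 of 31 lower, then 22 of 31 (medians -0.01, then -0.01), and glycogen metabolism had 9 of 20 lower, then 10 of 20 (medians 0.01, then 0.01). Nuclear oxidative phosphorylation subunits had 29 of 44 lower, then 24 of 44 (medians -0.01, then -0.01). The 8 mitochondrially encoded genes tested were all lower (median -0.10; with 6 libraries 6 of 8, median -0.08). Their summed level ran from 736823 to 824665 on the ketogenic diet and from 745092 to 942276 on MCT, so the groups overlapped. After quantile normalisation the median was 0. That step gives a gene of unchanged rank the same value in every library, whatever its level, so this median is no check of the difference.

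Nutrient signalling and the clock were read next. Insulin and IGF signalling had 12 of 20 members higher, then 11 of 20 (medians 0.02, then 0.01), and mTOR, AMPK and autophagy had 11 of 31 higher, then 13 of 31 (medians -0.02, then -0.02). Igf1r, the receptor of insulin-like growth factor, was at 1325, 1501, 1334 and 1430 against 1554, 1442, 1668 and 1546 (log2 difference -0.15 ± 0.06; limma, adjusted p = 0.997; -0.16 with 6 libraries). Circadian clock genes had 14 of 20 higher, then 15 of 20 (medians 0.04, then 0.04). Among them Arntl, which encodes the clock activator BMAL1, was at 641, 571, 562 and 580 against 532, 509, 558 and 499, without overlap (log2 difference 0.17 ± 0.06, adjusted p = 0.997; 0.11 with 6 libraries). Glucocorticoid response genes had 14 of 18 lower with 8 libraries (median -0.20) but 7 of 18 lower with 6 (median 0.03). Fkbp5, the chaperone induced by the glucocorticoid receptor, was at 851, 1078, 1185 and 1366 against 1128, 1587, 1317 and 1274, lowest in WT_K_1 and highest in WT_M_2, the libraries that were removed.

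Immediate early genes are transcribed by neurons within minutes of activity. With 8 libraries 18 of 20 were higher on the ketogenic diet (median 0.19), and with 6 libraries 15 of 20 (median 0.17), beside 50.5% and 51.3% of all genes (49.5% and 48.7% lay lower). None was called (limma; 2 with an unadjusted p under 0.05). Members of a list share their animals, so 20 members are not 20 observations. Egr1, an activity-induced transcription factor, was at 2214, 2700, 2129 and 2574 against 2238, 1569, 1806 and 1846 (log2 difference 0.37 ± 0.10; limma, adjusted p = 0.997; 0.33 with 6 libraries). Arc, which shapes synaptic AMPA receptor number, was at 1290, 2425, 2122 and 1861 against 1579, 1093, 1192 and 2022 (log2 difference 0.39 ± 0.21; 0.44 with 6 libraries). Fos was at 409, 763, 530 and 433 against 465, 308, 264 and 606, and the spread within each group was as wide as the difference.

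Receptor and synapse genes were read as 5 lists. GABA genes had 10 of 23 higher, then 8 of 23 (medians -0.01, then -0.02), and glutamate receptors had 11 of 31 higher, then 9 of 31 (medians -0.02, then -0.04). The excitatory postsynapse had 10 of 24 higher, then 5 of 24 (medians -0.01, then -0.05). Channels tied to ketogenic diets and excitability had 10 of 19 higher, then 8 of 19 (medians 0.00, then -0.07). Neurotrophins with their receptors had 7 of 11 higher, then 4 of 11 (medians 0.02, then -0.04), and so turned direction. Gad1, which makes GABA, lay between 4976 and 5971 against 5553 to 5888. Abcc9, a sulfonylurea receptor subunit of ATP-sensitive potassium channels, was at 122, 93.8, 128 and 116 against 141, 168, 134 and 135, without overlap (log2 difference -0.33 ± 0.12; limma, adjusted p = 0.997; -0.28 with 6 libraries). Bdnf, the neurotrophin of activity-dependent plasticity, lay between 1120 and 1315 against 994 to 1311.

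Stress genes were read as 3 lists. Endoplasmic reticulum and integrated stress genes had 18 of 22 lower on the ketogenic diet (median -0.05) and 17 of 22 with 6 libraries (median -0.06). Hyou1, a chaperone of that compartment, was at 2028, 1893, 1666 and 1777 against 2108, 1975, 2136 and 1967 (log2 difference -0.16 ± 0.06; limma, adjusted p = 0.997; -0.22 with 6 libraries). Antioxidant genes had 15 of 22 higher, then 13 of 22 (medians 0.04, then 0.03), and heat shock chaperones had 11 of 16 higher, then 9 of 16 (medians 0.02, then 0.02). Hspa8, the constitutive HSC70 chaperone, was at 4123, 4419, 6377 and 3881 against 6435, 5724, 6160 and 6820, with WT_K_3 alone inside the MCT range (log2 difference -0.44 ± 0.13, adjusted p = 0.997; -0.44 with 6 libraries). Without WT_K_3 it was called (log2 difference -0.60; limma, adjusted p = 0.00962).

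Of the immune lists, 17 of 21 interferon response genes, 11 of 13 antigen presentation genes and 9 of 15 inflammasome and cytokine genes passed the filter with 8 libraries. Interferon response genes had 8 of 17 higher, then 4 of 16 (medians -0.06, then -0.14). Antigen presentation had 8 of 11 higher, then 4 of 10 (medians 0.06, then -0.05), and so turned direction. Inflammasome and cytokine genes had 7 of 9 higher, then 6 of 9 (medians 0.06, then 0.07). Bst2, the antiviral membrane protein tetherin, was at 9.61, 5.80, 8.74 and 6.89 against 15.6, 14.3, 14.7 and 18.1, without overlap at a low level. Its log2 difference was -0.95 ± 0.28 (limma, adjusted p = 0.997), and -1.09 with 6 libraries. Every ketogenic value was under 10, so Bst2 passed the filter through the MCT libraries alone, which favours groups without overlap.

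Cell type markers were read next, and in bulk tissue fewer cells of a type and less RNA per cell cannot be told apart. Pan-neuronal genes had 7 of 8 lower, then 7 of 8 (medians -0.04, then -0.08). Dentate granule cell genes had 7 of 10 higher, then 9 of 10 (medians 0.06, then 0.14), and CA pyramidal genes had 6 of 12 higher, then 7 of 12 (medians -0.00, then 0.01). Neurogenesis genes had 7 of 10 higher, then 6 of 9 (medians 0.05, then 0.04), and interneuron genes had 6 of 12 higher, then 4 of 12 (medians -0.01, then -0.03). Astrocyte genes had 11 of 14 lower, then 8 of 14 (medians -0.06, then -0.02), and reactive astrocyte genes had 5 of 8 higher, then 6 of 8 (medians 0.08, then 0.05). Gfap, the astrocyte filament, was at 3823, 4424, 4897 and 4204 against 4564, 5872, 4338 and 5306. Myelin genes were all higher with 8 libraries (14 of 14, median 0.13) and 12 of 14 with 6 (median 0.12). The myelin list rested on WT_K_3, whose summed level was 95100 against 60734 to 82519 in the other libraries; without it the median over the remaining 5 of those 6 libraries was -0.02. Oligodendrocyte precursor genes had 4 of 10 higher, then 4 of 10 (medians -0.03, then -0.02). Homeostatic microglia genes had 6 of 14 higher, then 11 of 14 (medians -0.02, then 0.08), and endothelium with mural cells had 10 of 15 higher, then 7 of 15 (medians 0.04, then -0.04), so both turned direction. Activated microglia genes had 6 of 13 higher, then 5 of 12 (medians -0.02, then -0.01).

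Markers of tissue beside the hippocampus followed. Choroid plexus genes summed to 11543 in WT_K_1 and to between 2923 and 4096 in the other ketogenic libraries, against 2686 to 3528 on MCT. Of the 8 tested, 7 were higher with 8 libraries (median 0.40) and 3 with 6 (median -0.15). Ttr is on this list and WT_K_1 was removed for its Ttr, so this change follows at least in part from the rule of removal. Meningeal fibroblast genes had 10 of 11 higher in both fits (median 0.53, then 0.33), with summed levels of 1403 to 3193 on the ketogenic diet and 1128 to 2294 on MCT. Fmod, a small proteoglycan of that list, was at 195, 42.5, 128 and 52.8 against 76.4, 49.7, 21 and 27.1. Without WT_K_3 as well, the meningeal median with 6 libraries became -0.03. Ependyma and motile cilia genes had 9 of 10 lower (median -0.40; all 10 with 6 libraries, median -0.55), with summed levels of 196 to 318 against 263 to 519, the highest in WT_M_4. Haemoglobin and red cell genes had 5 of 5 lower (median -0.31; with 6 libraries -0.37), with sums of 311 to 354 against 252 to 570. Striatum and neocortex genes had 12 of 15 higher with 8 libraries and 11 of 15 with 6 (medians 0.16, then 0.06). Thalamus and habenula genes had 4 of 8 higher, then 4 of 8 (medians -0.03, then 0.03). No marker of these lists was at 0 in all libraries of either group. The part of this tissue in Slc16a1, Ogn (a meningeal gene, log2 difference 0.49 ± 0.14; 0.64 with 6 libraries) and the other genes above was not tested.

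**Figure D5:**
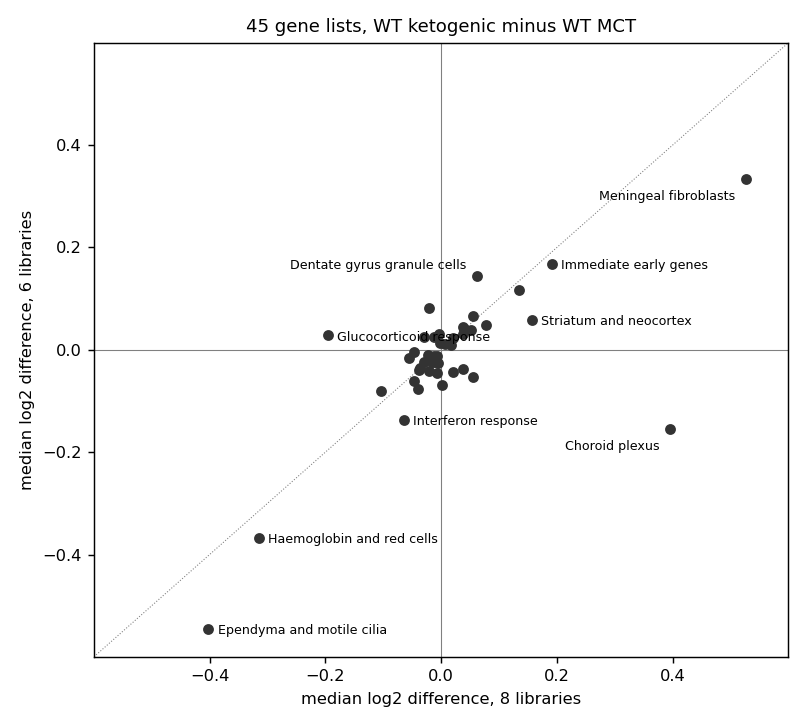
Median log2 difference (ketogenic minus MCT) of each of the 45 gene lists with 8 libraries (horizontal axis) and with 6 (vertical axis); the dotted line marks equal medians. Choroid plexus moves from 0.40 to -0.15 when the 2 libraries are removed, and most lists lie within 0.1 of 0 on both axes. The choroid plexus list includes Ttr, for which WT_K_1 was removed, so its move follows at least in part from that rule.

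Beyond the lists, genes with the smallest p off chromosome 2 are given as values, since none was called (limma, adjusted p = 0.997 with 8 libraries for each). On the higher side, Slitrk2, a synaptic adhesion protein, was at 1105, 1109, 1145 and 1115 against 1028, 966, 975 and 899 (log2 difference 0.21 ± 0.05; 0.22 with 6 libraries). Unc13c, a synaptic vesicle priming factor, was at 803, 693, 729 and 690 against 640, 481, 411 and 604 (log2 difference 0.47 ± 0.12; 0.38 with 6 libraries). Sytl2, a Rab27 effector of vesicle trafficking, lay between 481 and 512 against 313 to 441 (log2 difference 0.36 ± 0.10; 0.26 with 6 libraries), and Tifa, an adaptor of NF-kappaB signalling, between 222 and 251 against 134 to 201 (log2 difference 0.45 ± 0.12; 0.36 with 6 libraries). On the lower side, Htr3a, the ion channel receptor of serotonin found on a class of interneurons, was at 94.7, 121, 105 and 87.2 against 148, 192, 135 and 142 (log2 difference -0.59 ± 0.14; -0.45 with 6 libraries). Cbl, a ubiquitin ligase of receptor kinases, lay between 1329 and 1500 against 1608 to 1838 (log2 difference -0.24 ± 0.06; -0.21 with 6 libraries). Slc27a3, a fatty acid transport family member, lay between 40.2 and 50.8 against 55.8 to 86.1 (log2 difference -0.63 ± 0.17; -0.59 with 6 libraries). With 8 libraries the groups did not overlap for any of these 7 genes, beside 1.91% of all genes tested without overlap. The 7 were picked by small p, which favours such groups, so this is a description. Leaving libraries out cannot make such groups overlap, so the 6 libraries add no check. Htr3a, Cbl and Unc13c lie on chromosome 9. Among the 269 stretches of 5 Mb described above, chromosome 9 from 40 to 45 Mb ranked 2 (10 of 44 genes) and from 45 to 50 Mb ranked 4 (5 of 31). Whether position along the chromosome bears on the difference of any gene named here was not tested.

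With the 6 libraries other uncalled genes had small p, and 3 are given as values (limma, adjusted p = 0.998 for each). Wnt4, a secreted Wnt ligand, was at 97.6, 62.1 and 63.1 against 125, 117 and 122 (log2 difference -0.73 ± 0.18). Slc26a10, of the anion transporter family, was at 90.9, 105 and 129 against 69.8, 41 and 34.2 (log2 difference 1.2 ± 0.25). Ak7, an adenylate kinase of motile cilia, was at 26.1, 35.9 and 24.1 against 50.9, 46.3 and 78.4 (log2 difference -0.99 ± 0.25), and the ependyma list to which motile cilia belong was also lower with these libraries (median -0.55).

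Whether the difference between the diets differed between genotypes was tested in the 17 ketogenic and MCT libraries of both. As labelled, no gene of 14050 was called (limma; 322, or 2.29%, had an unadjusted p under 0.05). Without WT_K_1, WT_M_2 and 3xTg_K_1, 1 of 13987 was called (0.00715%; 400, or 2.86%, had an unadjusted p under 0.05), namely Pla2g4e, with a difference of 3.38 ± 0.44 (log2, WT minus 3xTg; limma, adjusted p = 0.00844). As labelled this difference was 2.70 ± 0.62 (limma, adjusted p = 1). In 3xTg mice Pla2g4e was at 187 in 3xTg_K_1, whose Thy1 was at the WT level, and between 21.4 and 55.3 in the other 8 libraries. Within 3xTg no gene was called (limma), and 442 (3.15%) had an unadjusted p under 0.05 as labelled. Without WT_K_1, WT_M_2 and 3xTg_K_1 it was 672 (4.8%). The spread in both fits came from the WT and 3xTg libraries together. Within 3xTg, for Pla2g4e, the ketogenic diet differed from MCT by 0.64 ± 0.43 (limma, adjusted p = 0.999). Without those 3 libraries the difference was 0.16 ± 0.29 (limma, adjusted p = 0.972). The level of the 3xTg libraries other than 3xTg_K_1 was thus near that of the WT MCT libraries. Eif3j2 was likewise highest in 3xTg_K_1, at 43.8, and lay between 1.59 and 11.8 in the others; its difference between genotypes was 3.83 ± 0.69 without the doubted libraries and was not called (limma, adjusted p = 0.229). In 3xTg_K_1 both genes were thus close to WT_K_1 and WT_K_2, which had Pla2g4e at 222 and 213 and Eif3j2 at 42.6 and 43.5. Whether 3xTg_K_1 and WT_M_2, the libraries whose Thy1 went against their labels, were exchanged was not tested. Were 3xTg_K_1 a WT MCT library, that group would hold a value near those of WT_K_1 and WT_K_2 for both called genes.

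Slc16a1 differed by 0.34 ± 0.15 in 3xTg (ketogenic minus MCT) and was not called there (limma, adjusted p = 0.999).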

How the data were processed

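Poly(A) RNA libraries from hippocampus were sequenced, and 8 of the 24 were compared (17 for the difference between genotypes). Reads were trimmed with Trimmomatic and aligned with STAR to GRCm38, per the submitters' processing notes; the sources used here do not name the gene counter, annotation or scaling tool, nor whether the adapters' molecular identifiers were used. The deposited values are a signal, normalised counts of 21793 genes, each a whole read count divided by 1 factor per library: the division came out whole (tolerance 0.01) for 100.0% of values, so reads were recovered. Some genes are not reported here. The 26 gene names altered to dates were never named.

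Log2(value + 1) was fitted with limma 3.58.1 in R 4.3.3 (empirical Bayes with trend, two-sided, Benjamini-Hochberg, threshold 0.05) for genes at 10 or more in at least 3 libraries. DESeq2 1.42.0 and edgeR 4.0.16 on the recovered reads, other constants, filters, scalings, weights, a replicate block and leaving out each library were alternatives. Data with 13810 genes were simulated for the 8-library comparison. There, 26% of 50 genes changed 1.25-fold were recovered, 72% at 1.5-fold, 96% at 2-fold and 100% at 3-fold. There were 8 false calls among 13610 unchanged genes. All these changes were put into the same data, and only into genes with a mean of at least 32. In the real comparison 2 genes were called, so the adjusted threshold was stricter and recovery there can be lower. Libraries come from separate mice, so p-values measure the spread between mice.

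Genes named are up to 10 highest and 10 lowest called genes per comparison with a mean of at least 32, filled by the smallest p as values; from each list up to 4 called members or the 2 with the smallest p, and its key members; Thy1, Ttr, App and Mapt; and the 5 genes with the smallest p for the difference between genotypes. Neighbours of Pla2g4e, and some list members given as examples, were chosen after their values were seen. The members, lists and thresholds were chosen with earlier results of these data known. Positions are by symbol from GENCODE M21 on GRCm38 (21556 genes matched 1 position, 27 several and 210 none).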

Additional observations from a re-analysis of the deposited data

Results flagged for a closer look

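Among 448 groups of 4 libraries checked, 20 (4.46%) held 1 library far from the other 3. Chance gives about 1 in 20 for independent genes not chosen by their values. Many genes checked here were chosen by their values and all share their libraries, so that rate is no measure for them. In WT_K_1 these were Ttr at 3921, Kl at 691, Clic6 at 128 and Prlr at 375, all choroid plexus genes, with Zfp790 at 335 and H2-D1 at 368. In WT_M_2 they were Thy1 at 23048, Slc16a1 at 735, Sox10 at 307, Serpina3n at 860, Sfmbt2 at 121 and Bcl2l11 at 59.6. WT_K_1 and WT_M_2 had already been set apart by Ttr and Thy1. The flags of Thy1, Ttr and the other choroid plexus genes are therefore no separate finding. The Slc16a1 and Sox10 values are the lowest of their group. Both genes had groups that did not overlap with 8 libraries, and leaving a library out cannot make such groups overlap.

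In WT_K_3 the myelin gene Mobp at 15812 stood apart, with Sst at 1377 and Mlx at 441. In WT_K_4 it was Ugp2 at 1832, in WT_M_1 Per3 at 615 and Sox9 at 652, and in WT_M_3 Ckmt1 at 2142 and Pfkfb3 at 968. The difference between the diets differed between genotypes for Pla2g4e, by 3.38 on the log2 scale without the doubted libraries (limma, adjusted p = 0.00844), and it was not called with the libraries as labelled (2.70, limma, adjusted p = 1).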

How the results depend on the processing

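With 8 libraries the 2 genes stayed called under both other constants, no filter, TMM factors, quantile normalisation, library weights, edgeR and the replicate block. The count was 1 with a filter at a mean of 50 (Pla2g4e) and 1 in the fit of all libraries (Eif3j2), and 4 with DESeq2, which added Ivd and Haus2. Leaving out each library in turn gave 2 to 3 calls, with Bub1b added without WT_K_2 and Hspa8 added without WT_K_3. With 6 libraries the count was 1 with the filter at a mean of 50, 0 in the fit of all libraries (limma; 420 genes at an unadjusted p under 0.05) and 3 with DESeq2, which added Ivd. Leaving out each of the 6 gave 0 to 5 calls. There were 0 without WT_K_3 (limma, 325 at an unadjusted p under 0.05) or WT_K_4 (392). There were 5 without WT_K_2, with Eif3j1 among the lower ones. The difference between genotypes gave 1 call without the doubted libraries, and leaving out each library gave 0 to 1, the 1 being without 3xTg_K_1. The cause was not tested for any of these, except that the stricter filter removes Eif3j2.

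The labels do not say whether the replicate numbers pair the mice. Libraries with the same number correlated at 0.239, -0.042, 0.080 and -0.131 in their deviations from the group means. The value of 0.239 was the highest over all pairs of a ketogenic and an MCT library. So few correlations cannot settle whether the mice were paired. The replicate block gave 2 calls with 8 libraries and 15 with 6 (9 higher, 6 lower), with Eif3j1 among the lower ones. With 6 libraries only WT_K_3, WT_K_4, WT_M_3 and WT_M_4 have a partner of the same number. The blocked difference then rests on these libraries alone and little is left to measure the spread, so the 15 calls are weak. For the difference between genotypes the replicate block gave 0 calls (limma, 470 at an unadjusted p under 0.05).

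No called value reversed, while 296 values of uncalled genes changed sign under an alternative. Of the list medians under alternatives, 17 moved by more than the spread and 973 did not; the 17 were in the lists of mitochondrially encoded, red cell, oxidative phosphorylation, myelin, meningeal and glucocorticoid genes. With 3 or 4 mice a group, changes well under 1.5-fold would mostly be missed. Larger changes can be missed too where few genes change, since the adjusted threshold is then stricter.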
